A study of Mus musculus with 2 samples.

Results

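The 10 genes described here mark the endothelium that lines the liver sinusoids, or encode signals that this endothelium sends to hepatocytes. They were taken by symbol: Stab1, Stab2, Lyve1, Pecam1, Kdr, Clec4g, Oit3, Bmp2, Wnt2 and Rspo3. All 10 were among the 15348 genes of the deposited table. The study compared livers of female NOG-TKm30 mice given ortho-toluidine (OTD), an aromatic amine, with livers of untreated female NOG-TKm30 mice. The OTD mice received 0.6% for 1 week and then 0.3% for 3 weeks (4 weeks in all), and the control mice 0% throughout. The route is not given in the sources used here. The age label of both groups is 16 weeks. The RNA of 5 OTD mice was pooled for 1 library and that of 3 control mice for the other, so neither group had replicates. NOG mice are severely immunodeficient and lack T, B and NK cells. Both groups carry a cDNA of HSVtk mutant clone 30, driven by the enhancer and promoter of mouse transthyretin (Ttr), a gene of hepatocytes, so the controls are not wild-type mice. The labels disagree on the strain, since their treatment protocol speaks of C57BL and all other fields of NOG-TKm30.

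Liver sinusoidal endothelial cells (LSECs) are fenestrated and lack a continuous basement membrane. They clear waste from blood through scavenger receptors and lectins. They also release angiocrine factors, endothelial proteins that act on neighbouring cells. In mouse liver, BMP ligands from this endothelium drive hepcidin in hepatocytes, and Wnt ligands and R-spondin from endothelium near the central vein maintain the pericentral hepatocyte programme.

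The libraries held 14685193 reads (OTD) and 13569189 reads (control) assigned to genes. Levels below are the deposited normalized values, which sum to 980948 in the OTD column and 1019422 in the control column. Genes with a mean level of at least 10 over both libraries were called measured, which took in 7602 genes and 8 of the 10 endothelial genes. Wnt2 and Rspo3 lay below that limit and are given with their reads. Alb, the hepatocyte albumin gene, took 7.10% of OTD reads and 8.01% of control reads, and none of the hepatocyte, Kupffer cell or stellate cell markers stood at 0 reads in either library. The ribosomal RNA precursor Rn45s took 2.66% of OTD reads and 1.47% of control reads. With 1 pool per group, the spread between mice, pools or library preparations was not measured, no difference below has a replicate check, and no p-value is given. Intervals are 95% exact intervals on read numbers and cover counting error only.

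The endothelial genes stood at nearly the same level in both livers. None of the 8 measured genes differed 1.5-fold, a size that 2.42% of all measured genes reached (1.51% higher and 0.908% lower in the OTD pool). At that share 0 of 8 is near the background and does not set these genes apart. Ratios of OTD over control ran from 0.831 for Pecam1 to 1.05 for Oit3 over all 10 genes. The summed level of the 10 genes was 495.3 in the OTD pool and 518.5 in the control pool, a ratio of 0.955 (0.924 to 0.987). As a share of all reads the 10 genes took 0.0505% in the OTD pool and 0.0509% in the control pool. In bulk liver RNA, fewer cells of a type and less RNA per cell cannot be told apart. The 8 measured genes had a median log2 ratio (pseudocount 1) of −0.07, with 5 below 0 and 3 above, against −0.0063 over all measured genes, of which 51.6% were below 0. Scaling both libraries to the same read total without Rn45s moved that median of the 8 genes to 0.0053 and the median of all measured genes to 0.065, so signs depended on the scaling. The median of the 8 genes stayed the lower one, which was all but given in advance, since scaling shifts all genes alike.

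**Figure D1:**
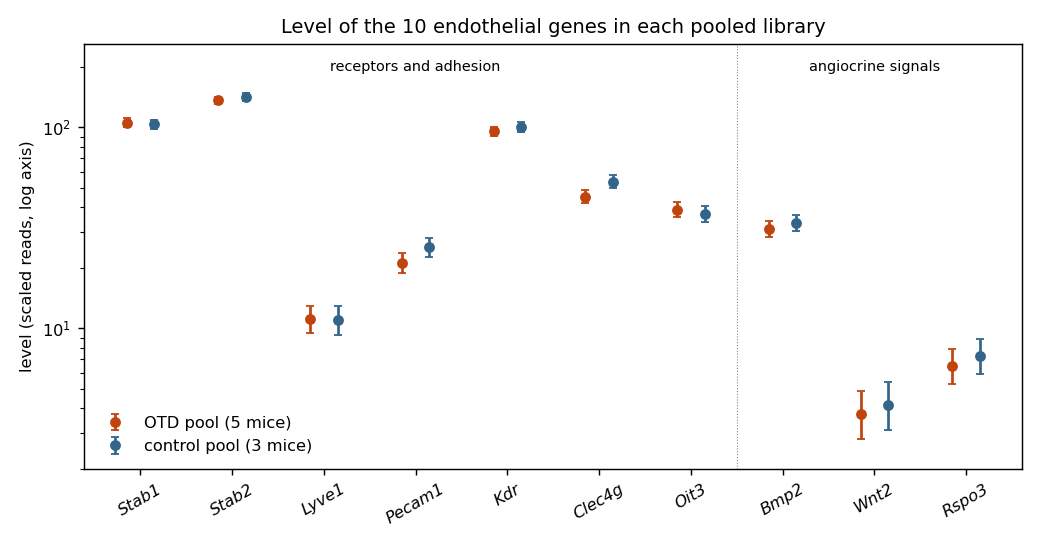
Level of each gene (scaled reads, log axis) in the OTD pool (orange, left of each pair) and the control pool (blue, right), with 95% Poisson intervals on the reads. The 2 points of each pair lie close together, and the pairs span from about Wnt2 (3.74 in OTD, 4.13 in control) to Stab2 (136.1 in OTD, 142.2 in control).

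Promoter sequences are shown for 3 genes that stand for the kinds of member described: Stab2, the gene with the most reads, Clec4g, one of the pair whose counting interval lay below 1, and Wnt2, an angiocrine signal. RefSeq promoter windows (GRCm38.p6, 250 bases before to 50 bases after the start) were found for 5 of the 10 genes, the others being Stab1 and Kdr. Windows were searched on both strands for CGGAAG and AGGAAG, forms of the core bound by ETS factors such as Erg and Fli1, and for AGATAA, a form of the core bound by GATA factors. Capitals mark the matches, each sequence reads 5′ to 3′ in the direction of the gene, and all 3 genes lie on the minus strand. Stab2 is shown over chr10:87007893-87008192, Clec4g over chr8:3720602-3720901 and Wnt2 over chr6:18030396-18030695.
Stab2: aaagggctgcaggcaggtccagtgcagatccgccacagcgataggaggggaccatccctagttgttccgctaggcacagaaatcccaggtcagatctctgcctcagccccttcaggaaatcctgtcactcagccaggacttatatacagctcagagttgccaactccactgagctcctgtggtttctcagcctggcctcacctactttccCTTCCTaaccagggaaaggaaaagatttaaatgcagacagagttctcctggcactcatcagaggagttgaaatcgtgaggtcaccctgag
Clec4g: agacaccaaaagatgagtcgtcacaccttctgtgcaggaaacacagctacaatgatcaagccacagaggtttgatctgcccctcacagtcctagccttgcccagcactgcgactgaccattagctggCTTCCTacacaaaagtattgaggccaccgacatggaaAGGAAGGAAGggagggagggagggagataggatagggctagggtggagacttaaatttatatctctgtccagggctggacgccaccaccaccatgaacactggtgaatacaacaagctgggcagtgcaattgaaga
Wnt2: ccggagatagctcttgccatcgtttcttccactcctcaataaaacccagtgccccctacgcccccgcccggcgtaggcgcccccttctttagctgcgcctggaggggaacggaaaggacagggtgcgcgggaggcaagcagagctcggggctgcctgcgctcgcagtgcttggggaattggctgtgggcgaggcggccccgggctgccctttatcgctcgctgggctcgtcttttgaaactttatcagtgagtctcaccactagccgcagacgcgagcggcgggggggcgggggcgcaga
AGGAAG occurred 3 times in the Clec4g window, where 2 of the matches overlap by 2 bases, and 1 time each in the Stab2 and Stab1 windows. CGGAAG occurred 1 time, in the Stab1 window. The Kdr and Wnt2 windows held neither ETS form, and none of the 5 windows held AGATAA. Of 32851 mouse promoter windows, 46.5% held at least 1 of the ETS forms and 11.2% held AGATAA. Matches are letters in these windows and not measured binding.

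The scavenger receptors were almost level between the pools. Stab2 encodes stabilin-2, which takes up hyaluronan and other ligands from blood. It lies on chromosome 10 at 86841198 to 87008025 (GRCm38, the mm10 assembly). Stab2 stood at 136.1 in the OTD pool (2037 reads) and 142.2 in the control pool (1893 reads), a ratio of 0.957 (0.898 to 1.02). Its homologue Stab1, on chromosome 14 at 31139013 to 31168641, stood at 105.6 in the OTD pool (1581 reads) and 103.5 in the control pool (1377 reads), a ratio of 1.02 (0.949 to 1.10). Both intervals hold 1 and are narrow, with outer bounds of 0.898 and 1.10. The last 112 bases of Stab1 overlap Nt5dc2 on the other strand, at levels of 2.94 (OTD) and 5.63 (control), and whether counting used the strand is not given in the sources used here. Lyve1, a hyaluronan receptor shared by sinusoidal and lymphatic endothelium, lies on chromosome 7 at 110850607 to 110863239. It stood at 11.1 in the OTD pool (166 reads) and 11.0 in the control pool (146 reads), a ratio of 1.01 with a wider interval (0.804 to 1.27). Oit3, a zona pellucida domain protein used as an LSEC marker, lies on chromosome 10 at 59422958 to 59441778. Its level was 39.0 in the OTD pool (584 reads) and 37.2 in the control pool (495 reads), and its ratio of 1.05 (0.929 to 1.18) was the highest of the 10.

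Clec4g and Pecam1 were the 2 genes with intervals wholly below 1. Among all measured genes 19.6% had such an interval, so 2 of 8 is near the background, and 18.6% had an interval wholly above 1, against 0 of the 8. Clec4g, which encodes the sinusoidal C-type lectin LSECtin, lies on chromosome 8 at 3707064 to 3720651. Its level was 45.2 in the OTD pool (677 reads) and 53.7 in the control pool (715 reads), a ratio of 0.842 (0.757 to 0.936). Pecam1 encodes CD31, an adhesion molecule of endothelial junctions that platelets and leukocytes also carry, and lies on chromosome 11 at 106654217 to 106750628. It stood at 21.1 in the OTD pool (316 reads) and 25.4 in the control pool (338 reads), a ratio of 0.831 (0.711 to 0.972). Within all measured genes, the log2 ratios of Pecam1 and Clec4g lay at percentiles 8.97 and 9.77. After scaling to the same read total, the interval of Clec4g stayed below 1 (ratio 0.875, 0.786 to 0.973) and that of Pecam1 did not (0.864, 0.739 to 1.01). Kdr, the main VEGF receptor of endothelium (VEGFR2), lies on chromosome 5 at 75932827 to 75978458. Kdr stood at 95.8 in the OTD pool (1434 reads) and 100.7 in the control pool (1340 reads), a ratio of 0.952 (0.883 to 1.03).

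**Figure D2:**
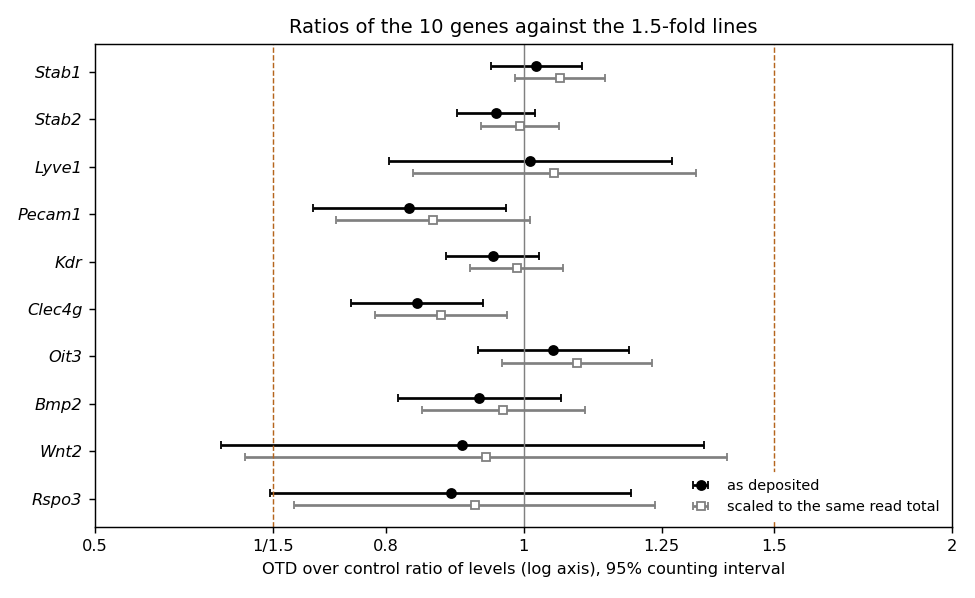
OTD over control ratio of each gene (log axis) with 95% counting intervals, as deposited (black circles) and after scaling to the same read total (open grey squares). All points lie between the dashed 1.5-fold lines, and Clec4g is the gene whose interval stays below 1 under both scalings shown.

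Shares within the 10 genes do not depend on the scaling of the libraries. Clec4g took 9.13% (8.48 to 9.81) of their reads in the OTD pool and 10.4% (9.65 to 11.1) in the control pool. Relative to the other 9 genes summed, Clec4g had a ratio of 0.869 (0.777 to 0.973) and Pecam1 of 0.864 (0.736 to 1.01). Stab1 had the opposite sign, with 21.3% (20.4 to 22.3) of reads in the OTD pool and 20.0% (19.0 to 20.9) in the control pool, and a relative ratio of 1.09 (1.00184 to 1.18). The relative ratios of the remaining 7 genes had intervals that hold 1.

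Of the angiocrine signals, Wnt2 and Rspo3 had the lowest levels of the 10 genes and the widest ratio intervals, while Bmp2 stood above Lyve1 and Pecam1. Bmp2, a BMP ligand of LSECs that induces hepcidin in mouse liver, lies on chromosome 2 at 133552159 to 133562885. It stood at 31.2 in the OTD pool (467 reads) and 33.5 in the control pool (446 reads), a ratio of 0.931 (0.816 to 1.06). Wnt2, a Wnt ligand of pericentral sinusoidal endothelium, lies on chromosome 6 at 17988940 to 18030585. Its level was 3.74 in the OTD pool (56 reads) and 4.13 in the control pool (55 reads), a ratio of 0.905 (0.613 to 1.34). Rspo3 encodes R-spondin 3, which strengthens Wnt signalling by removing the ubiquitin ligases that degrade Wnt receptors, and lies on chromosome 10 at 29452416 to 29535867. Each pool held 97 reads of Rspo3, giving levels of 6.48 in the OTD pool and 7.29 in the control pool and a ratio of 0.889 (0.664 to 1.19). At these read numbers a difference of the size seen in Wnt2 or Rspo3 was not detectable. The level of the 3 signals summed was 41.4 in the OTD pool and 44.9 in the control pool, a ratio of 0.922 (0.823 to 1.03). Set against the sum of the 7 receptor and adhesion genes, the ratios were 0.971 (0.847 to 1.11) for Bmp2, 0.945 (0.638 to 1.40) for Wnt2 and 0.928 (0.691 to 1.24) for Rspo3.

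Levels divided by the length of the longest annotated transcript (GENCODE M21) had the same order in both pools. Per kilobase, Clec4g was highest at 31.4 in the OTD pool and 37.3 in the control pool. Stab2 followed with 16.5 (OTD) and 17.3 (control), Kdr with 16.2 and 17.0, Oit3 with 14.4 and 13.7, and Stab1 with 13.2 and 12.9, in each case OTD and control. Bmp2 stood at 8.77 per kilobase in the OTD pool and 9.43 in the control pool, Pecam1 at 6.13 and 7.38, and Lyve1 at 3.83 and 3.79. The pericentral signals were lowest, with 2.10 in the OTD pool and 2.36 in the control pool for Rspo3 and 1.66 and 1.83 for Wnt2. The counting intervals of Stab2 and Kdr overlapped in both pools, as did those of Oit3 and Stab1 and those of Rspo3 and Wnt2, so the order within these pairs was not resolved. Kdr and Oit3 overlapped in the OTD pool but not in the control pool.

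Of 25 other LSEC and liver endothelial genes listed, 19 were measured, with 14 below 0, 5 above and a median log2 ratio of −0.12. One of them was 1.5-fold lower and 0 were 1.5-fold higher in the OTD pool, and 8 had an interval below 1 (42.1% of 19, against 19.6% of all measured genes). Intervals narrow as reads rise, so this share depends on level as well as on the size of a difference. At a mean of at least 50, where 11 of the 19 lay, 940 of 2884 genes had an interval below 1. The gene past 1.5-fold was Cd36, a fatty acid and lipoprotein scavenger receptor that hepatocytes also express, at 29.1 in the OTD pool and 47.5 in the control pool (ratio 0.612, 0.540 to 0.693). Scarb1, the HDL receptor, likewise shared with hepatocytes, stood at 204.9 in the OTD pool and 276.0 in the control pool (ratio 0.742, 0.707 to 0.779). Fcgr2b, the inhibitory Fc receptor, stood at 47.2 in the OTD pool and 56.6 in the control pool (ratio 0.834, 0.751 to 0.925). Mrc1, the mannose receptor, which macrophages also carry, stood at 102.0 in the OTD pool and 115.9 in the control pool (ratio 0.880, 0.819 to 0.945). Plxnc1, a semaphorin receptor, stood at 64.3 in the OTD pool and 78.1 in the control pool (ratio 0.824, 0.754 to 0.900). F8, the gene of coagulation factor VIII, made in liver mainly by LSECs, stood at 44.2 in the OTD pool and 42.5 in the control pool (ratio 1.04, 0.928 to 1.17). Gata4, a transcription factor that specifies LSECs in mouse, stood at 17.4 in the OTD pool and 15.2 in the control pool (ratio 1.15, 0.952 to 1.39).

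Pan-endothelial genes did not lean to either side, with 21 of 36 measured, 10 below 0, 11 above, 0 past 1.5-fold in either direction and a median log2 ratio of 0.012. Cdh5, the VE-cadherin gene of endothelial junctions, stood at 49.1 in the OTD pool and 42.4 in the control pool (ratio 1.16, 1.04 to 1.30). Tek, the angiopoietin receptor Tie2, stood at 21.4 in the OTD pool and 20.9 in the control pool (ratio 1.03, 0.872 to 1.21). Klf2, a transcription factor that responds to blood flow, had the largest difference of the measured ones. Klf2 stood at 12.2 in the OTD pool and 8.71 in the control pool (ratio 1.40, 1.11 to 1.79). Lower in the OTD pool were Adgrf5 (ratio 0.873) and the most abundant gene of the list, Ece1 (ratio 0.934), each with an interval below 1. Of the 21 measured genes, 3 had an interval below 1 and 2 had one above.

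Genes of continuous, capillary-type endothelium, which LSECs gain when they lose their fenestrae, had 9 measured of 15 in the table, 3 below 0 and 6 above, with a median log2 ratio of 0.12. One of them, Ly6a, passed 1.5-fold, at 59.5 in the OTD pool and 26.0 in the control pool (ratio 2.29, 2.02 to 2.60). Ly6a encodes Sca-1, which is also carried by other cell types and induced by interferon. Without Ly6a the measured genes of the list ran from a log2 ratio of −0.18 to 0.25. That Ly6a stood alone depended on the limit of 10: Col15a1, a collagen chain of vessel basement membranes named after its values were seen, had a mean of 9.96, with 13.2 in the OTD pool and 6.76 in the control pool (ratio 1.95, 1.51 to 2.53). Under both scalings to the same total the list had 10 measured genes. Col4a2, a basement membrane collagen chain, stood at 45.6 in the OTD pool and 38.2 in the control pool (ratio 1.19, 1.06 to 1.34), and its partner Col4a1 at 68.5 in the OTD pool and 62.5 in the control pool (ratio 1.10, 0.999 to 1.20). Vwf, the von Willebrand factor gene of large-vessel endothelium, stood at 14.1 in the OTD pool and 12.2 in the control pool (ratio 1.15, 0.934 to 1.42). Cd34, a marker of continuous endothelium, had 30 reads in the OTD pool and 24 reads in the control pool (ratio 1.11, 0.628 to 1.99).

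**Figure D3:**
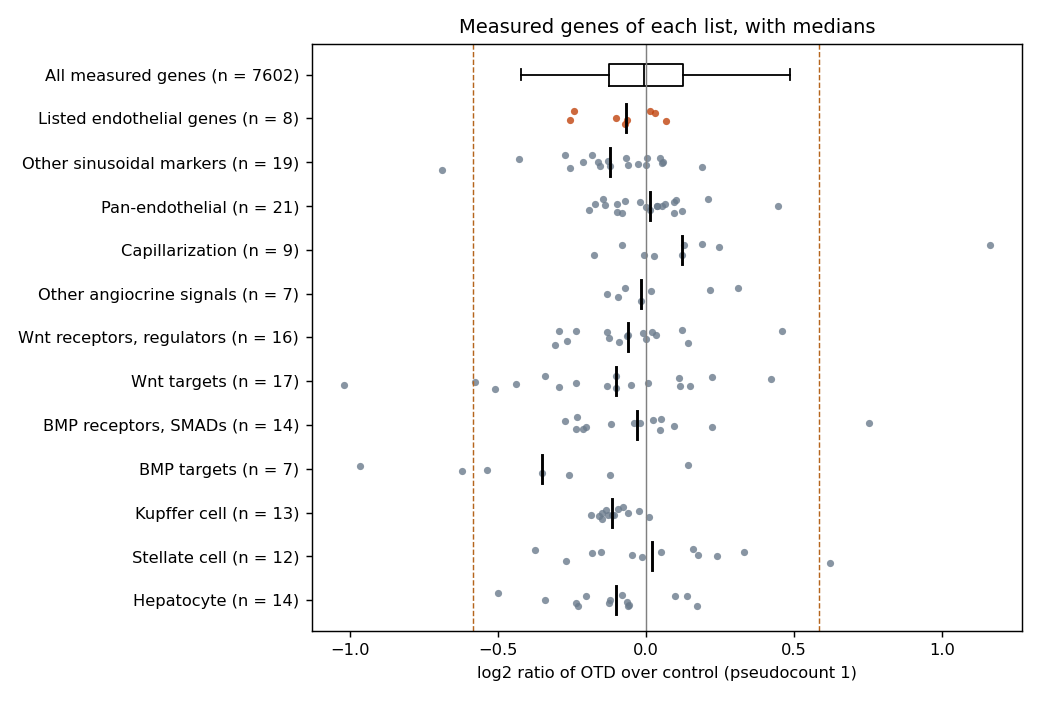
Log2 ratio of OTD over control for each measured gene of the endothelial, signalling and cell type lists (points), with list medians (black bars). The box shows all 7602 measured genes (quartiles, with whiskers around the middle 95% of genes), and dashed lines mark 1.5-fold. The 8 listed endothelial genes sit between −0.26 and 0.07, and the BMP targets have the lowest median, −0.35.

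In the BMP pathway, the ligand Bmp2 had a ratio of 0.931 (0.816 to 1.06). Bmp6, the other BMP ligand of LSECs that controls hepcidin, stood at 7.15 in the OTD pool and 5.63 in the control pool (ratio 1.27, 0.936 to 1.73). Of the BMP receptors, co-receptors and SMADs, 14 of 21 in the table were measured, with 8 below 0 and 6 above and a median of −0.03, and after scaling to the same total of 0.023, against 0.047 over all measured genes. The type I receptor gene Bmpr1a stood at 50.5 in the OTD pool and 61.2 in the control pool (ratio 0.825, 0.746 to 0.912). Hfe2, the hemojuvelin co-receptor gene, was the 1 member past 1.5-fold, at 39.3 in the OTD pool and 22.9 in the control pool (ratio 1.72, 1.49 to 1.98). Among BMP targets, 6 of 7 measured genes were below 0, 2 were 1.5-fold lower and 0 higher, and the median was −0.35. Over all measured genes 51.6% were below 0, 0.908% were 1.5-fold lower and 1.51% higher. Id1, an inhibitor of helix-loop-helix factors and an immediate BMP target, stood at 8.08 in the OTD pool and 16.8 in the control pool (ratio 0.482, 0.383 to 0.605). Id3 stood at 24.1 in the OTD pool and 37.6 in the control pool (ratio 0.641, 0.558 to 0.735). The feedback inhibitor Smad7 had a ratio of 0.681 (0.599 to 0.773) and Hamp, the hepcidin gene, of 0.784 (0.762 to 0.807). The other measured targets, named after their values were seen, were closer to level or higher, with ratios of 0.833 (0.753 to 0.921) for Id2, 0.917 (0.807 to 1.04) for Atoh8 and 1.10 (1.04 to 1.17) for the second hepcidin gene Hamp2. Whether the target levels follow the ligands was not tested.

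On the Wnt side, Wnt9b, the central vein Wnt ligand, stood at 1.07 in the OTD pool (16 reads) and 1.43 in the control pool (19 reads), a ratio of 0.749 (0.360 to 1.54). Wls, the carrier that brings Wnt proteins to the cell surface, stood at 7.08 in the OTD pool and 6.54 in the control pool (ratio 1.08, 0.808 to 1.46). Of the Wnt and R-spondin receptors and regulators, 16 of 26 were measured, with 11 below 0, 5 above, 0 past 1.5-fold and a median of −0.06, and after scaling without Rn45s of 0.010, against 0.065 over all measured genes. Lgr4, the R-spondin receptor of most hepatocytes, stood at 110.9 in the OTD pool and 115.8 in the control pool (ratio 0.957, 0.893 to 1.03). Znrf3, the ubiquitin ligase that R-spondins remove and itself a Wnt target, stood at 24.1 in the OTD pool and 29.8 in the control pool (ratio 0.809, 0.699 to 0.935). Among Wnt targets of pericentral hepatocytes, 17 of 20 were measured, with 11 below 0, 6 above, 1 past 1.5-fold lower and a median of −0.10. The gene past 1.5-fold was the feedback inhibitor Axin2, with 9.42 in the OTD pool and 20.1 in the control pool (ratio 0.468, 0.379 to 0.576). Lgr5, an R-spondin receptor of pericentral hepatocytes and a Wnt target, lay below the measured limit and had a ratio of 0.637 (0.453 to 0.890). Glul, glutamine synthetase of the hepatocytes next to the central vein, had one of 0.932 (0.905 to 0.959). Of the 17 measured targets, 10 had an interval below 1 and 4 above, against 19.6% and 18.6% of all measured genes. These shares also depend on level: 11 of the 17 had a mean of at least 50. Among the 2884 genes at that level, 940 had an interval below 1 and 688 above. Targets at that level with an interval below 1 included Slc1a2, Oat, Cyp2e1, Glul, Gulo and Slco1b2. Slc1a2 had a ratio of 0.700 (0.648 to 0.755) and Cyp2e1, the most abundant target, of 0.790 (0.782 to 0.798). Others below 1, named after their values were seen, were Oat (ratio 0.737, 0.709 to 0.766), Notum (0.843), Gulo (0.933) and Slco1b2 (0.965). The 4 targets with an interval above 1, named after their values were seen, were Aldh1a1 (ratio 1.34, 1.31 to 1.37), Cyp1a2 (1.17), Lect2 (1.11) and Cyp27a1 (1.08). The intervals of Wnt2, Wnt9b and Rspo3 hold 1 and, at 16 to 97 reads a pool, also hold ratios down to 0.613, 0.360 and 0.664.

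**Figure D4:**
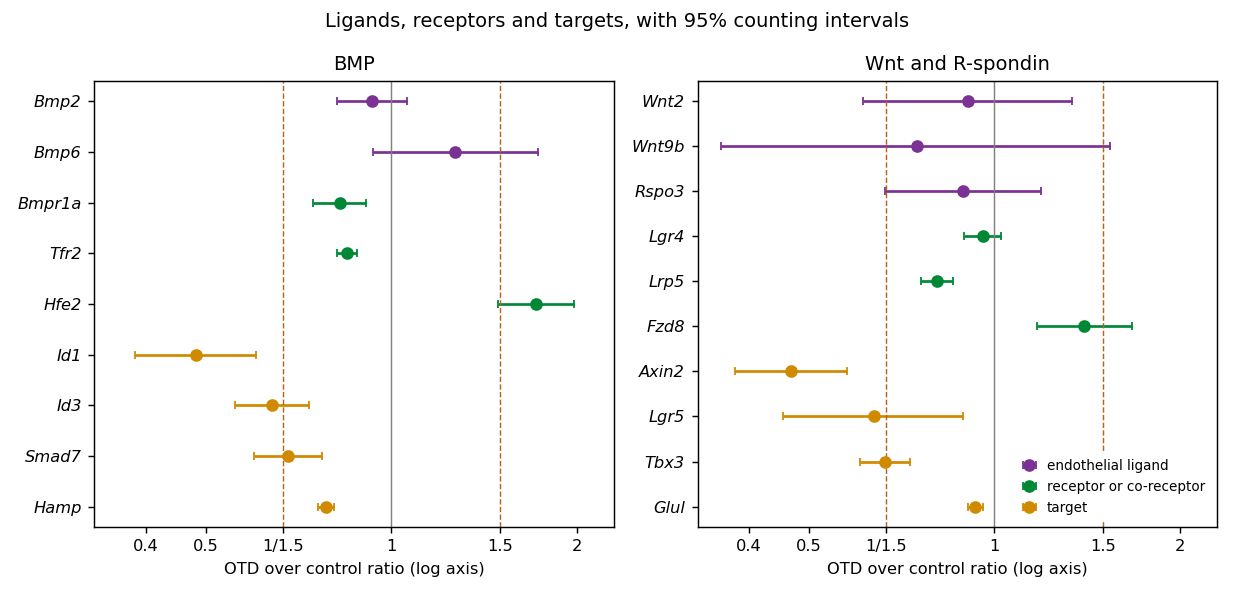
OTD over control ratio (log axis) with 95% counting intervals for endothelial ligands (purple), receptors and co-receptors (green) and targets (gold) of the BMP pathway (left) and the Wnt and R-spondin pathway (right). The ligands' intervals hold 1, and those of Wnt2, Wnt9b and Rspo3 rest on few reads. Targets drawn are Id1, Id3, Smad7 and Hamp on the left and Axin2, Lgr5, Tbx3 and Glul on the right. Of these, Id1 (0.482), Id3 (0.641), Axin2 (0.468), Lgr5 (0.637) and, just past it, Tbx3 (0.666) lie left of the dashed 1.5-fold line. Targets not drawn include Id2 (0.833), Atoh8 (0.917), Slc1a2 (0.700), Oat (0.737) and Cyp2e1 (0.790), lower in the OTD pool. Others not drawn were higher, among them Hamp2 (1.10), Aldh1a1 (1.34), Cyp1a2 (1.17), Lect2 (1.11) and Cyp27a1 (1.08). Ratios here are without pseudocount.

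The hepatocyte, Kupffer cell and stellate cell marker lists had ratios of summed levels from 0.883 to 0.983, while that of the cholangiocyte list was 1.07 (0.982 to 1.17) and that of the erythroid and platelet list 1.26 (1.21 to 1.31). The 17 Kupffer cell markers summed to 919.5 in the OTD pool and 992.4 in the control pool (ratio 0.927, 0.905 to 0.949), with 12 of 13 measured genes below 0 and a median of −0.11. The 20 stellate cell markers summed to 974.5 in the OTD pool and 991.0 in the control pool (ratio 0.983, 0.960 to 1.01), with 6 of 12 below 0 and a median of 0.02. The 14 hepatocyte markers had a ratio of sums of 0.883 (0.881 to 0.885), 11 of 14 below 0 and a median of −0.10. The 7 lymphatic endothelial markers, Lyve1 among them, summed to 409.2 in the OTD pool and 425.0 in the control pool (ratio 0.963, 0.929 to 0.998). Most of that sum came from Reln, Prox1 and Flt4, which stellate cells, hepatocytes and LSECs also express, with 3640, 1460 and 840 reads in the OTD pool and 3264, 1463 and 762 reads in the control pool. The 3 markers besides these and Lyve1, named after their values were seen, had few reads: Pdpn 5 in each pool, Ccl21a 5 in the OTD pool and 13 in the control pool, and Mmrn1 10 in the OTD pool and 4 in the control pool. The part of cell composition in the endothelial values was not tested.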

How the data were processed

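Each group's pooled liver RNA (200 ng) gave 1 library, depleted of ribosomal RNA and made with a directional kit, per the labels' protocols. The deposited values are a normalized signal per gene symbol, which the authors normalized from counts. The tools named in the submitters' processing notes are edgeR, RSEM, Bowtie2 and Trimmomatic 0.38, with the build mm10, and their roles are not stated there. All values (100% per column, tolerance 1e-06) came out as whole reads when divided by what 1 read is worth in their column. With 1 library per group no count test could be run on these reads.

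Log2 ratios of OTD over control used a pseudocount of 1, so differences of low genes are understated. Ratios without pseudocount carry 95% intervals (exact Clopper-Pearson, from the share of a gene's reads in the OTD pool), and levels carry Poisson intervals. A size of 1.5-fold at a mean of at least 10 stood in for a test. Relative ratios are conditional odds ratios. Gene positions and lengths came from GENCODE M21 (GRCm38), which matched 14732 symbols (96.0%), and promoters from RefSeq. Named genes were the 10 endothelial genes, 22 single genes, and in each of 17 lists the 3 largest differences and the most abundant gene. Further genes, each said in the text to be so chosen, were named after their values were seen. No gene was sought by likeness of pattern, since 2 libraries give a single ratio. The genes and lists were chosen with earlier results of these data known. Alternatives changed scaling, pseudocount, filter and size. The intervals and the size rule were tried on simulated reads with counting error only. That trial cannot show how they fare with spread between mice, pools or library preparations. The software was scipy 1.17.1, numpy 2.4.6, matplotlib 3.10.9 and pandas 2.3.3 under Python 3.11.15. The word Wild in the column names is not explained by the labels, and columns were matched by the words for control and OTD.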

Additional observations from a re-analysis of the deposited data

How the results depend on the processing

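No paired analysis was possible because each group had 1 pooled library. The count of 0 endothelial genes past 1.5-fold, in either direction, held under every scaling, pseudocount, filter and size tried (2-fold and a difference of 25% included). For 2-fold, the pseudocount of 10 and the filter at 50 it could not have risen. All 50 recomputed log2 ratios of the 10 genes stayed inside their counting intervals. Scaling moved every ratio by the same log2 amount, 0.056 at the same total and 0.073 without Rn45s. These shifts are smaller than each gene's counting error, so for the scalings that outcome was given in advance. The count of endothelial genes with an interval below 1 was 2 as deposited, 1 after scaling to the same total, with or without Rn45s, and 0 at a mean of at least 50, where 3 genes entered. Directions of small differences depended on scaling: Stab2 (0.0092) and Kdr (0.0013) had log2 ratios above 0 without Rn45s, where the median of all measured genes was 0.065. Over all genes, counts of 115 higher and 69 lower became 153 and 45 after scaling to the same total and 171 and 43 without Rn45s. A pseudocount of 10 gave 58 higher and 35 lower. The filters gave 327 higher and 159 lower (mean of 1 or more), 43 higher and 30 lower (mean of 50 or more), and 383 higher and 190 lower (no filter). A size of 25% gave 540 higher and 376 lower, and 2-fold gave 16 and 16. Intervals above and below 1 (1413 and 1492) became 1967 and 983 at the same total, 2194 and 871 without Rn45s, and 688 and 940 with the filter at 50. Of 116 list medians, 111 moved less than the counting error of their genes. For the scalings this too was given in advance in most lists, since the shifts are smaller than that error. The hepatocyte median became −0.046 at the same total, −0.029 without Rn45s and −0.12 (13 genes) at a mean of at least 50. The BMP receptor median became −0.20 (7 genes) at a mean of at least 50, and the erythroid and platelet median 0.40 (10 genes) without a filter, where other genes entered. The BMP target median stayed below 0 under each scaling (−0.34 to −0.23). From −0.35 as deposited, shifts of at most 0.073 could not have brought it to 0. The value of −0.23, without Rn45s, was over 8 genes against 7 as deposited. Wnt2 (56 reads in the OTD pool and 55 in the control pool) limits what depth can show.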

Other observations

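Signals that act on endothelium or come from it, beyond BMP and Wnt ligands, gave further values. Vegfa, the main VEGF ligand of Kdr, stood at 82.1 in the OTD pool and 66.9 in the control pool (ratio 1.23, 1.13 to 1.34), while Fgf1 stood at 127.2 in the OTD pool and 132.3 in the control pool (ratio 0.961, 0.901 to 1.03). Gas6, a ligand of TAM receptors, stood at 80.7 in the OTD pool and 64.9 in the control pool (ratio 1.24, 1.14 to 1.36). Hgf, the hepatocyte growth factor made by stellate and endothelial cells, stood at 32.7 in the OTD pool and 35.0 in the control pool (ratio 0.935, 0.822 to 1.06). Cxcl12, the most abundant of the other angiocrine genes, stood at 304.4 in the OTD pool and 319.7 in the control pool (ratio 0.952, 0.913 to 0.993). Of these other signals, 7 of 26 were measured, with 4 below 0, 3 above and a median of −0.016, and after scaling to the same total of 0.038, against 0.047 over all measured genes. Of the VEGF and angiopoietin list, 2 of 9 genes were measured, Vegfa and Fgf1. Of the pericentral endothelial list, which also holds Wnt2 and Rspo3, 2 of 14 genes were measured, and its summed level was 72.2 in the OTD pool and 78.4 in the control pool (ratio 0.922, 0.846 to 1.00). The periportal and arterial list summed to 133.2 in the OTD pool and 126.8 in the control pool (ratio 1.05, 0.984 to 1.12), with 3 of 14 measured and a median of 0.15, which was 0.0058 over all 14 genes without a filter, and the difference between the 2 zones was not tested.

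Some genes below the measured limit were chosen after their values were seen. Kitl, the ligand of the receptor Kit, had 7.35 in the OTD pool and 4.28 in the control pool (ratio 1.72, 1.24 to 2.41). Fst, a secreted inhibitor of activins and some BMPs, had 8.48 in the OTD pool and 3.53 in the control pool (ratio 2.40, 1.71 to 3.43). Dll1, a Notch ligand, had 4.01 in the OTD pool and 6.69 in the control pool (ratio 0.599, 0.425 to 0.841). The platelet genes Pf4 and Ppbp each had 22 reads in the OTD pool and 5 in the control pool, and the erythroid and platelet list, with a ratio of sums of 1.26, had a median log2 ratio of 0.087 over 4 measured genes. Without the alpha-globin gene Hba-a2, left out after its value was seen, the ratio of sums was 1.09 (1.04 to 1.14). The cholangiocyte and lymphatic lists, with 4 measured genes each, had a median of −0.036 and −0.020.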
